A study of Homo sapiens with 8 samples.

Results

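Complex I, the NADH:ubiquinone oxidoreductase of mitochondria, was followed through the nuclear genes of its subunits and assembly factors in Hs578T cells, an established human line of breast cancer, mesenchymal in character and negative for estrogen receptor. Members were the genes whose symbol is NDUFA, NDUFB, NDUFC, NDUFS, NDUFV, NDUFAB or NDUFAF followed by a number, 46 of the 21077 genes in the table. They comprised 37 subunits of complex I, 8 assembly factors named NDUFAF, and NDUFA4, which carries the family name but is a subunit of complex IV. Cells spent 48 h at 5 mM (low glucose) or at 25 mM glucose (high glucose, which stands for hyperglycemia), with 4 replicate libraries per group and no other difference between the groups in the labels. According to the methods of the study, cells were first conditioned in low glucose and then treated in serum-free medium, which both groups would share. The cells are of 1 established line, and the labels do not say whether the replicates were separate cultures, so every p value measures the spread between these libraries only.

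Complex I takes electrons from NADH, passes them along a chain of iron-sulfur clusters to ubiquinone, and couples this to the pumping of protons across the inner mitochondrial membrane. Its peripheral arm holds the N module, where NADH is oxidized, and the Q module, where ubiquinone is reduced. Its membrane arm holds the proton pumps, which are made from mitochondrial DNA, surrounded by accessory subunits made in the nucleus. Assembly factors bind intermediates of the complex, add cofactors or modify subunits, and leave before the complex is complete.

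Values are normalized signal, taken as CPM (counts scaled to library size) with TMM factors. Levels are given as mean ± SD, n = 4 per group. Log2 fold changes compare high with low glucose (positive where high glucose is higher) after log2(CPM + 1), a scale that shrinks changes of low genes. A gene was called higher or lower at an adjusted p under 0.05 in limma, with Benjamini-Hochberg adjustment over the 15570 genes that reached 0.5 CPM in at least 2 libraries. All 46 members passed that filter. Depth was estimated at 10244887 to 11956682 counts a library. All 6 markers of Hs578T cells reached 0.5 CPM in these libraries, with a summed level, mostly FN1, of 55300 to 59500 CPM in low and 33300 to 34600 CPM in high glucose. EPCAM, LYZ and CDH5, which mark epithelium, myeloid cells and endothelium, were at 0 in every library, while other genes of these marker sets were detected. PTPRC, an immune marker, was at 0.0835 in low and 0.714 CPM in high glucose on average. PECAM1 and VWF, endothelial markers, were at 2.05 and 0.22 in low and 5.8 and 1.52 CPM in high glucose. GATA3, a luminal marker, was at 21 in low and 20.2 CPM in high glucose. The summed level of 7 luminal markers, mostly KRT18 and KRT8, was 293 to 312 in low and 129 to 150 CPM in high glucose. That of the 3 of 5 immune markers with a row, nearly all CD68, was 180 to 189 and 91.9 to 96.6 CPM. The 3 endothelial markers summed to 1.95 to 2.77 and 6.21 to 7.8 CPM, and the 1 adipocyte marker with a row stayed at or below 0.191 CPM. The part of these markers in the results was not tested. Fewer cells of a type and less RNA per cell cannot be told apart in bulk RNA.

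Of the 46 members, 27 were lower in high glucose (58.7%), 7 were higher (15.2%) and 12 were not called. Over all genes tested, 37.2% were called lower and 35.7% higher. In a fit of only the 10919 genes with a mean of at least 5 CPM, 5051 were lower and 3919 higher, with a median of -0.10. Of the 45 members at that level 27 were lower and 7 higher, with a median of -0.31. The median log2 fold change of the members was -0.30, within a range of -1.52 to 0.56. With a change of at least 1.5-fold as a further condition, 14 members were lower and 0 were higher, against 21.5% and 20.1% of all genes. In 24 members all 4 high-glucose libraries lay below all 4 low-glucose libraries, and in 6 members they lay above, against 34.5% and 32.2% of all genes. These counts depend on the scaling of the libraries. The deposited columns sum to more in low than in high glucose. With every library brought to the same total, 17 members were called lower and 15 higher, with a median of -0.06. Over all 15570 genes 4348 were then lower and 7325 higher, and the median of all genes moved to 0.20. With quantile normalization 24 members were lower and 7 higher, against 5627 and 5616 of all genes. With median ratio scaling 26 members were lower and 7 higher, against 5567 and 5838 of all genes. The signal of all 46 members together made up 0.194% ± 0.00451 (low glucose) and 0.186% ± 0.00613 (high glucose) of a library.

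**Figure D1:**
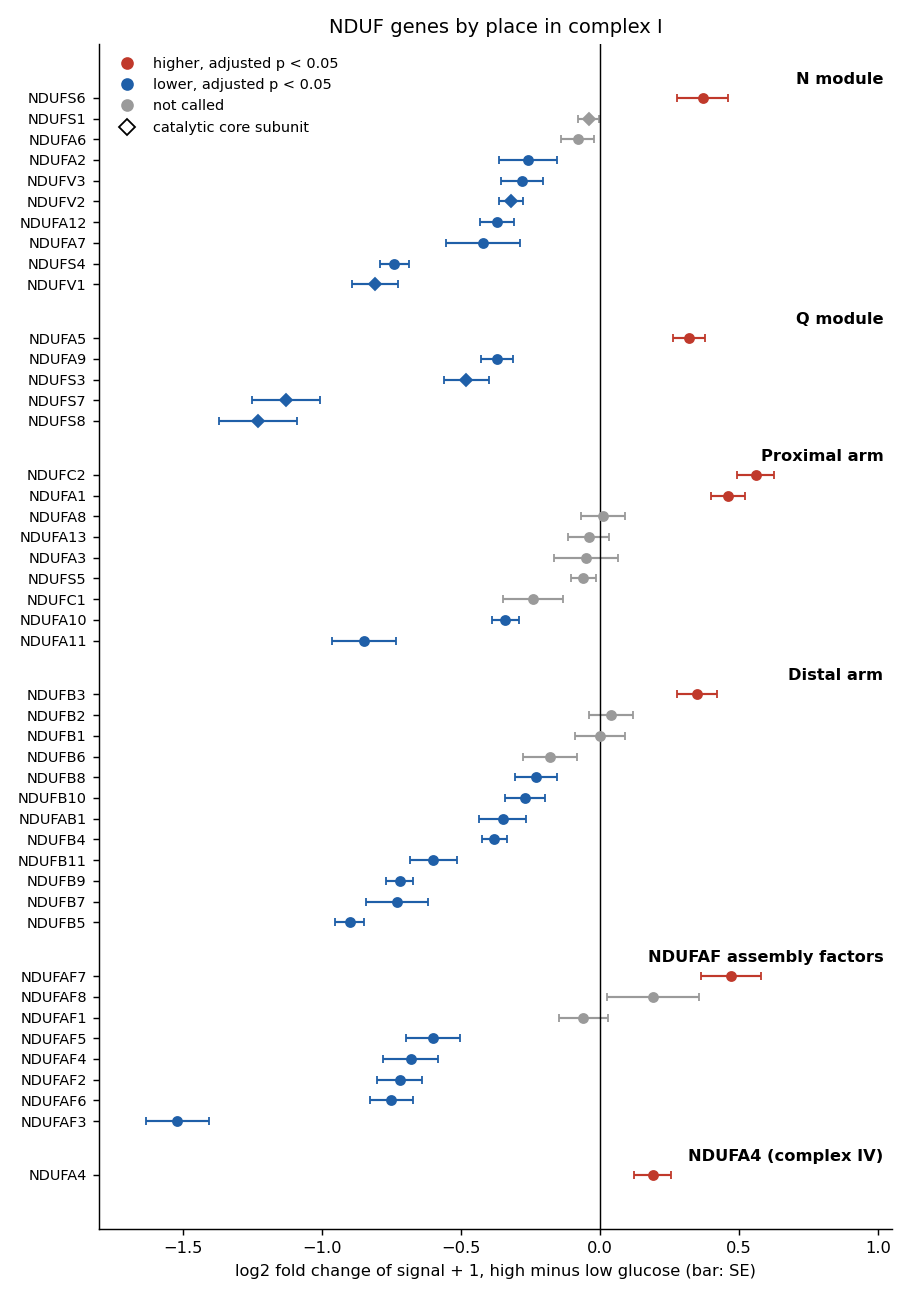
Log2 fold change of normalized signal + 1 (high minus low glucose, x axis) of 45 of the NDUF genes, grouped by their place in complex I, with the standard error as a bar and colors for the call at an adjusted p under 0.05 in limma. Values run from -1.52 for NDUFAF3 to 0.56 for NDUFC2. Under the deposited scaling points left of 0 outnumber those right of 0 in the N, Q, proximal and distal groups and the assembly factors, with a median of -0.05 in the proximal arm. With equal library totals the median of the subunits is -0.04, and that of all genes is 0.20.

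The catalytic core of the peripheral arm was mostly lower. Of the 7 core subunits made in the nucleus, which carry the flavin and the iron-sulfur clusters, 6 were lower and NDUFS1 was not called, with a median log2 fold change of -0.48. With equal library totals NDUFS8, NDUFS7, NDUFV1 and NDUFS3 were still called lower, NDUFV2 was not called, and NDUFS1 was called higher with a value of 0.21. After a correction per library for the GC content of transcripts, chosen after seeing the data, NDUFS1 was instead called lower (-0.17, adjusted p = 2.40e-04). Under the deposited scaling the 2 subunits with the deepest fall were NDUFS8 and NDUFS7, which are neighbours in the Q module and carry the last iron-sulfur clusters before ubiquinone. After the GC correction NDUFB5 (-1.06) and NDUFS4 (-0.87) lay below NDUFS8 (-0.83) and NDUFS7 (-0.66).

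NDUFS8 (ENSG00000110717.13, chr11:68030681-68036644 in GRCh38.p14) had 54.8, 75.6, 57.8 and 54.8 CPM in the 4 low-glucose libraries and 30.4, 31, 23.1 and 18.3 CPM in the 4 high-glucose libraries. The groups did not overlap, and low glucose replicate 2 stood above the other 3. Its level fell from 60.7 ± 9.98 to 25.7 ± 6.1 CPM on average (log2 fold change -1.23 ± 0.14 (SE), adjusted p = 1.08e-06). NDUFS7 (ENSG00000115286.20, chr19:1383907-1395584 in GRCh38.p14), which holds the cluster that hands electrons to ubiquinone, had 21.6, 32, 22.4 and 25.3 in low and 11.7, 11.4, 12 and 8.84 CPM in high glucose. Again low glucose replicate 2 was the highest and high glucose replicate 4 the lowest library, with no overlap. The change was from 25.3 ± 4.71 to 11 ± 1.45 CPM on average (log2 fold change -1.13 ± 0.123 (SE), adjusted p = 6.23e-07). NDUFS3, a scaffold of the Q module, had 41.1, 44.5, 38.3 and 39.6 in low and 32.7, 29.6, 24.4 and 29.6 CPM in high glucose (log2 fold change -0.48 ± 0.0815 (SE), adjusted p = 6.87e-05). The groups did not overlap.

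NDUFV1, the flavoprotein that binds NADH, had 99.6, 110, 101 and 103 in low and 58.9, 70.3, 58.5 and 48.1 CPM in high glucose. The high-glucose libraries were spread more widely, with replicate 2 highest and replicate 4 lowest, but stayed below every low-glucose library (log2 fold change -0.81 ± 0.0828 (SE), adjusted p = 2.88e-07). NDUFV2, its partner with 1 iron-sulfur cluster, had 89.5, 88.4, 93.4 and 91.7 in low and 70.2, 73.8, 70.3 and 75.9 CPM in high glucose (log2 fold change -0.32 ± 0.0446 (SE), adjusted p = 9.83e-06). A pseudogene row of NDUFV2, NDUFV2P1, held 2.03 ± 0.239 in low and 1.45 ± 0.177 CPM in high glucose, and reads of such copies can be split between rows. Both rows added gave 92.8 ± 2.27 and 74 ± 2.95 CPM and the same log2 fold change of -0.32. NDUFS1, the largest subunit and the carrier of several clusters of the N module, had 184, 179, 176 and 178 in low and 177, 172, 168 and 181 CPM in high glucose. These groups overlapped (log2 fold change -0.04 ± 0.037 (SE), adjusted p = 0.376).

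Around this core the accessory subunits of the peripheral arm went mostly the same way. In the N module 7 of 10 subunits were lower and 1 higher (median -0.30). In the Q module 5 of 6 were lower and 1 higher (median -0.42). With equal library totals, where 4348 of 15570 genes were lower and 7325 higher, the N module had 2 lower and 3 higher. The Q module then had 4 lower and 1 higher. After the GC correction 9 were lower and 1 higher in the N module, and 5 lower and 0 higher in the Q module. That correction gave 5768 of 15374 genes lower and 5693 higher. NDUFS4, an accessory subunit of the N module whose loss causes Leigh syndrome, fell from 81.4 ± 0.882 to 48.3 ± 3.2 CPM on average (log2 fold change -0.74 ± 0.0519 (SE), adjusted p = 3.22e-09). The other N module subunits that were lower, NDUFA7, NDUFA12, NDUFV3 and NDUFA2, had log2 fold changes of -0.42, -0.37, -0.28 and -0.26, and NDUFA9 of the Q module had -0.37. With equal library totals these 4 of the N module had -0.19, -0.13, -0.04 and -0.03 and were not called. The groups of NDUFA7 overlapped, and without low glucose replicate 2 and high glucose replicate 4 together it had -0.24 (adjusted p = 0.106). The groups of NDUFA2 overlapped as well, and it was not called with any of the 3 other scalings, or without low glucose replicate 1, 2 or 4 or high glucose replicate 3 or 4 (log2 fold change -0.25 to -0.19). NDUFA6 was not called (-0.08).

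The 2 members of the peripheral arm that rose were NDUFS6 and NDUFA5. NDUFS6, a zinc-binding subunit of the N module, had 17.6, 19.7, 15.7 and 18.9 in low and 21.8, 27, 21.6 and 23.9 CPM in high glucose, with no overlap (log2 fold change 0.37 ± 0.0919 (SE), adjusted p = 0.00197). NDUFA5, an accessory subunit of the Q module, had 42.3, 41.5, 46.2 and 42.8 in low and 51.4, 51.2, 55.7 and 58.1 CPM in high glucose (log2 fold change 0.32 ± 0.0585 (SE), adjusted p = 1.59e-04). The transcript of NDUFA5 has the lowest GC content of the 45 members with a value (34.6%), and after the GC correction its log2 fold change was 0.11 (adjusted p = 0.0512). That of NDUFS6 was 0.59 after the same correction.

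The membrane arm was more mixed. Of 12 distal subunits, which surround the outer proton pumps, 8 were lower and 1 was higher (median -0.31). Of 9 proximal subunits 2 were lower and 2 higher (median -0.05). With equal library totals, where 4348 of 15570 genes were lower and 7325 higher, the distal arm had 5 lower and 3 higher. The proximal arm then had 1 lower and 5 higher. After the GC correction 6 of 11 distal subunits with a GC value were lower and 1 higher, and 4 proximal subunits were lower and 3 higher. NDUFB5 (ENSG00000136521.13, chr3:179604794-179627647 in GRCh38.p14), a single-pass subunit of the distal arm, showed the deepest fall of the membrane arm. It had 109, 105, 98 and 104 in low and 59.7, 53.3, 54.2 and 53.2 CPM in high glucose (log2 fold change -0.90 ± 0.0513 (SE), adjusted p = 2.89e-10). The groups were far apart, with high glucose replicate 1 above the other 3 of its group. NDUFB9, NDUFB7 and NDUFB11, further accessory subunits of this arm, fell with log2 fold changes of -0.72, -0.73 and -0.60, and NDUFB4, NDUFAB1 (the mitochondrial acyl carrier protein), NDUFB10 and NDUFB8 with -0.38, -0.35, -0.27 and -0.23. NDUFB10 had -0.03 with equal library totals and -0.02 after the GC correction, and NDUFB8 had 0.01 and -0.14, none of these called. NDUFAB1 had -0.11 with equal library totals and was not called. NDUFB6, NDUFB1 and NDUFB2 were not called (-0.18, -0.00 and 0.04), although NDUFB6 was called lower without low glucose replicate 3 or high glucose replicate 2 (-0.25 in both). NDUFB3 was the only distal subunit that rose. It had 24.2, 24.5, 22.8 and 26.1 in low and 28.7, 33.8, 30.6 and 32.5 CPM in high glucose, with no overlap (log2 fold change 0.35 ± 0.0712 (SE), adjusted p = 3.87e-04).

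In the proximal arm NDUFA11, an accessory subunit embedded in the membrane, had 73, 85.4, 63.7 and 67.1 in low and 45.6, 45.7, 38.2 and 30.1 CPM in high glucose. All high-glucose libraries were lower, and replicate 4 was the lowest of them (log2 fold change -0.85 ± 0.115 (SE), adjusted p = 6.85e-06). NDUFA10 fell less (-0.34), and with equal library totals it had -0.10 and was not called (adjusted p = 0.0845). Under the deposited scaling the largest rise of the family was that of NDUFC2 (ENSG00000151366.13, chr11:78068297-78079862 in GRCh38.p14), a small membrane subunit. NDUFC2 had 43.3, 51.4, 46.9 and 43.8 in low and 68.1, 75.6, 67.3 and 63.5 CPM in high glucose, with replicate 2 the highest of both groups (log2 fold change 0.56 ± 0.0656 (SE), adjusted p = 1.49e-06). After the GC correction it had 0.44, below NDUFS6 (0.59) and NDUFAF8 (0.53). A row for the readthrough NDUFC2-KCTD14, with which NDUFC2 shares exons, held 3.29 ± 1.12 and 2.9 ± 1.5 CPM and was not called. NDUFC1, another small membrane subunit, had -0.24 and missed the threshold (adjusted p = 0.0617), which it passed without high glucose replicate 2 (-0.29, adjusted p = 0.0342) and after the GC correction (-0.28, adjusted p = 0.0257). NDUFA1, a short membrane subunit encoded on the X chromosome, had 41.3, 42.8, 36.3 and 40.2 in low and 56.9, 53.3, 53.2 and 58.4 CPM in high glucose (log2 fold change 0.46 ± 0.0608 (SE), adjusted p = 5.85e-06). The groups did not overlap. NDUFS5, NDUFA3, NDUFA13 and NDUFA8 were not called, with log2 fold changes between -0.06 and 0.01.

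**Figure D2:**
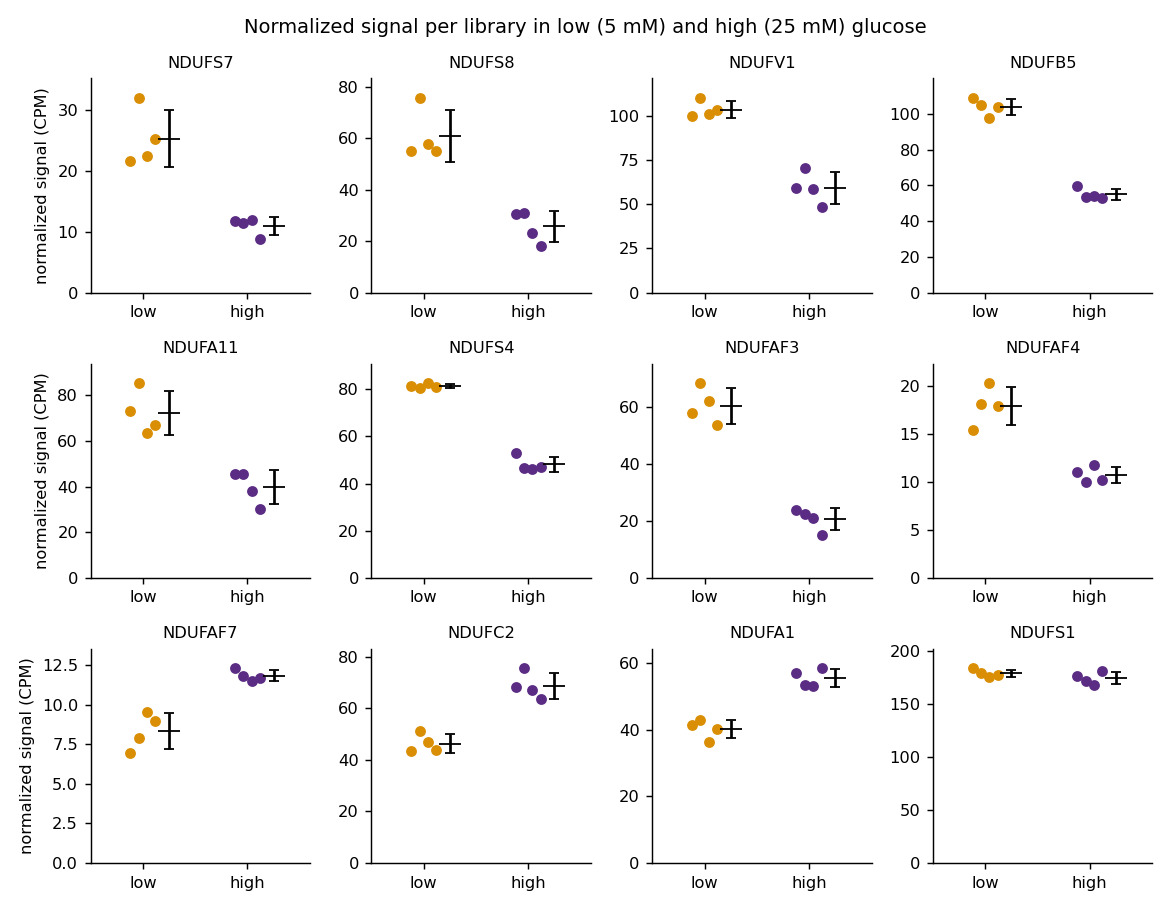
Normalized signal (CPM, y axis from 0) of 12 NDUF genes in the 4 low-glucose and 4 high-glucose libraries, 1 point per library, with the mean and SD beside them. NDUFS7, NDUFS8, NDUFV1, NDUFB5, NDUFA11, NDUFS4, NDUFAF3 and NDUFAF4 are lower in all 4 high-glucose libraries, NDUFAF7, NDUFC2 and NDUFA1 are higher in all 4, and NDUFS1 overlaps, and only NDUFS1 among them changes sign under another scaling (0.21 with equal library totals).

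Among the NDUFAF assembly factors 5 of 8 were lower, 1 was higher and 2 were not called, with a median log2 fold change of -0.64 against -0.28 for the 37 subunits, of which 22 were lower and 5 higher. The 5 factors were called lower under all 4 scalings. With equal library totals the subunits split into 12 lower and 12 higher, and the medians of factors and subunits were -0.41 and -0.04. Over all 15570 genes that scaling gave 4348 lower and 7325 higher, with a median of 0.20. As a mean over the list in each library, the log2 level of the factors went from 4.22 ± 0.0698 to 3.76 ± 0.0889 and that of the subunits from 5.53 ± 0.0516 to 5.24 ± 0.0754. The difference between both means within a library was 1.31 ± 0.0922 in low and 1.48 ± 0.111 in high glucose. The libraries ranged from 1.17 to 1.37 and from 1.32 to 1.58, so the groups overlapped, and no test was made of a mean over members chosen with results known.

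NDUFAF3 (ENSG00000178057.14, chr3:49020452-49023495 in GRCh38.p14), which joins early intermediates of the Q module together with NDUFAF4, showed the deepest fall of all members. It had 57.9, 68.6, 62.2 and 53.8 in low and 23.9, 22.6, 21.2 and 15.1 CPM in high glucose. The groups stood far apart, and the level fell from 60.6 ± 6.33 to 20.7 ± 3.89 CPM on average (log2 fold change -1.52 ± 0.114 (SE), adjusted p = 8.24e-09). Its partner NDUFAF4 had 15.4, 18.1, 20.3 and 17.9 in low and 11, 10, 11.8 and 10.2 CPM in high glucose, with no overlap (log2 fold change -0.68 ± 0.099 (SE), adjusted p = 1.47e-05). NDUFAF3 overlaps exons of DALRD3 on the opposite strand, and whether the counting used strand is not given in the sources used here.

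NDUFAF6, needed for a core subunit of the membrane arm, had 30.8, 29, 30.1 and 29.4 in low and 16.6, 15.5, 19.2 and 18 CPM in high glucose (log2 fold change -0.75 ± 0.0767 (SE), adjusted p = 2.83e-07). NDUFAF2, a late factor that is related to NDUFA12 and holds its place on the intermediate, had 36.7, 34.5, 37.8 and 35.6 in low and 18.4, 22.2, 24.6 and 21.5 CPM in high glucose (log2 fold change -0.72 ± 0.0812 (SE), adjusted p = 9.42e-07). NDUFA12 itself had -0.37. NDUFAF5, which hydroxylates NDUFS7, had 16.5, 15.7, 18.7 and 16.4 in low and 10.6, 9.42, 12 and 11.2 CPM in high glucose (log2 fold change -0.60 ± 0.0972 (SE), adjusted p = 4.69e-05). In all 3 factors the groups did not overlap.

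NDUFAF7, a methyltransferase of the mitochondrial matrix, was the only one of the 8 called higher under the deposited scaling. It had 6.97, 7.87, 9.54 and 8.96 in low and 12.3, 11.8, 11.5 and 11.7 CPM in high glucose (log2 fold change 0.47 ± 0.108 (SE), adjusted p = 0.00111), and its low-glucose libraries were the more spread. NDUFAF1, a factor of the complex that builds the membrane arm, had 11.6, 12.3, 12.4 and 11.2 in low and 11.4, 11.3, 11.5 and 11.1 CPM in high glucose and was not called (log2 fold change -0.06 ± 0.0882 (SE), adjusted p = 0.551). NDUFAF8, the stabilizing partner of NDUFAF5, was the lowest member in counts, with 29 to 69 estimated counts per library. It had 4.21, 5.51, 4.12 and 3.42 in low and 5.98, 5.21, 5.82 and 3.42 CPM in high glucose, and the groups overlapped (log2 fold change 0.19 ± 0.166 (SE), adjusted p = 0.307). It was called higher with equal library totals (0.39, adjusted p = 0.0422), after the GC correction (0.53, adjusted p = 0.00294), and without low glucose replicate 2 and high glucose replicate 4 together (0.44, adjusted p = 0.0157).

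The 9 assembly factors with other names did not share one direction, with 3 lower, 3 higher and 3 not called and a median of 0.17. ACAD9 and ECSIT, which act with NDUFAF1 in the complex that builds the membrane arm, fell from 76.8 ± 3.07 to 44.9 ± 3.81 CPM (log2 fold change -0.77 ± 0.0613, adjusted p = 1.68e-08) and from 43.7 ± 3.97 to 25.1 ± 2.75 CPM (-0.78 ± 0.0833, adjusted p = 4.90e-07). TMEM126B, TIMMDC1 and COA1, membrane proteins of the same assembly complex, rose from 37.8 ± 2.9 to 53.4 ± 3.83, from 48.6 ± 3.22 to 70.6 ± 2.16 and from 21.1 ± 2.46 to 31.3 ± 3.17 CPM, with log2 fold changes of 0.49, 0.53 and 0.55. FOXRED1 was lower (-0.26), with -0.03 at equal library totals. TMEM186, TMEM70 and NUBPL, the last of which delivers iron-sulfur clusters to complex I, were not called (0.01, 0.17 and 0.19). TMEM70 was close to the threshold (adjusted p = 0.0525) and was called higher with equal library totals (0.41), quantile normalization (0.27) and median ratio scaling (0.21), and without low glucose replicate 3 or 4 or high glucose replicate 3 (0.20 to 0.22). NUBPL was called higher with equal library totals (0.41, adjusted p = 0.0034). Taking both groups of names, 8 of 17 factors were lower (47.1%) and 4 higher (23.5%), against 37.2% and 35.7% of all genes. The median of these 17 was -0.06, against -0.64 for the 8 NDUFAF factors and -0.28 for the 37 subunits. Factors of one assembly complex stood on both sides.

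**Figure D3:**
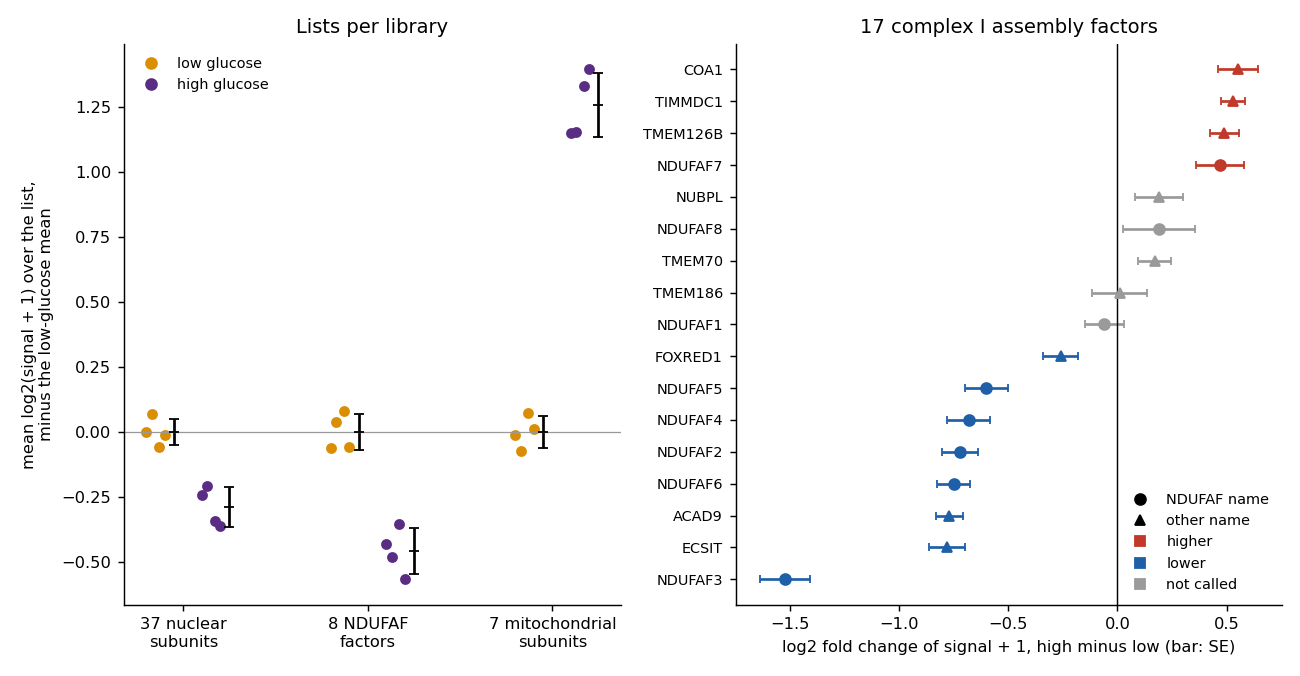
Left, mean log2(signal + 1) over the 37 nuclear subunits, the 8 NDUFAF factors and the 7 mitochondrial subunits in each library, less the low-glucose mean of the list, with mean and SD beside the points; right, log2 fold change with standard error of 17 assembly factors, high minus low glucose. The nuclear lists lie lower by 0.29 and 0.46 and the mitochondrial list higher by 1.26 in high glucose under the deposited scaling. With equal library totals the median of the nuclear subunits is -0.04, against 0.20 for all genes, while the other lists keep their direction.

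NDUFA4, a subunit of complex IV despite its name, had 123, 111, 97.6 and 112 in low and 136, 132, 115 and 122 CPM in high glucose. The groups overlapped, and the rise was small (log2 fold change 0.19 ± 0.0663 (SE), adjusted p = 0.0199). After the GC correction its log2 fold change was 0.03 and it was not called, nor was it without low glucose replicate 3 (0.13) or high glucose replicate 1 (0.15) or 2 (0.16). Its paralog NDUFA4L2, which the rule does not match, fell from 3.9 ± 0.793 to 1.68 ± 0.316 CPM on average (log2 fold change -0.86 ± 0.156, adjusted p = 1.31e-04).

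The 7 subunits of complex I encoded by mitochondrial DNA were all higher in high glucose, under every scaling, with log2 fold changes of 2.56 for MT-ND2, 1.97 for MT-ND1, 1.67 for MT-ND3, 0.96 for MT-ND6, 0.94 for MT-ND5, 0.41 for MT-ND4L and 0.30 for MT-ND4. The mean log2 level of these 7 exceeded that of the 37 nuclear subunits by 2.69 ± 0.111 in low and 4.24 ± 0.198 in high glucose, a difference that is not per length and is given only for its change.

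Promoters of members were searched for short motifs of factors known to act on respiratory genes, because the family moved both ways. RefSeq windows of 300 bases (GRCh38.p14, 250 before and 50 after a start) were matched for 39 of the 46 members. NDUFA4, NDUFAF6, NDUFB5, NDUFB9, NDUFC2 and NDUFS5 were among those not matched. Of 50 windows of members checked, 40 held the first bases of the canonical transcript. The NRF1 motif CGCATGCG, which reads the same on both strands, was in 6 of the 39 members (15.4%), against 2.02% of all 35116 windows and 4.42% of the tested genes with a window. In 4 of them it lay before the start, shown here in capitals within 80 bases 5′ to 3′ of the sense strand, for 2 members that fell (NDUFS7 and NDUFB4) and 2 that rose (NDUFS6 and NDUFA5). The capitals CCCCGCCCC at the beginning of the NDUFS6 stretch mark the Sp1 motif GGGGCGGGG read on the opposite strand.
NDUFS7, chr19:1383827-1383906, plus strand: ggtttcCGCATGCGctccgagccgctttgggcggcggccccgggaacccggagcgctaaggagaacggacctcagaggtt
NDUFB4, chr3:120596178-120596257, plus strand: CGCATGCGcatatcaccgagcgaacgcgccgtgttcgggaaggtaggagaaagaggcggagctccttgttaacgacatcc
NDUFS6, chr5:1801308-1801387, plus strand: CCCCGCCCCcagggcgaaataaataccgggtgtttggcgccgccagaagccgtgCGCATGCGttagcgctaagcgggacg
NDUFA5, chr7:123557896-123557975, minus strand: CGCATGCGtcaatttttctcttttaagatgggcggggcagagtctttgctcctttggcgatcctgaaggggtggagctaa

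The same 8 letters thus stood before a start of NDUFS7 (log2 fold change -1.13), NDUFB4 (-0.38), NDUFS6 (0.37) and NDUFA5 (0.32). Windows at other starts of NDUFA5 did not hold them. NDUFA8 and NDUFAF5 held the NRF1 motif across the start. The YY1 motif AAGATGGCG was in 7 of 39 members (17.9%, against 1.75% of all windows and 4.53% of tested genes), each time after the start, and they were NDUFA6, NDUFA7, NDUFA9, NDUFAF8, NDUFB8, NDUFS4 and NDUFS7. Of these 5 were called lower and 2 were not called, beside 23 called lower among all 39 members with a window. The ETS motif CCGGAAGT, bound by GABPA, was in 2 members (5.13%, against 4.14% and 9.67%), NDUFS1 and NDUFA13, neither of them called. The Sp1 motif GGGGCGGGG was in 7 members (17.9%, against 15.7% and 31.9%), and the ERR motif TCAAGGTCA in 0 (against 0.353% and 0.241%). All motifs were searched on both strands. A match is a description of the letters in these windows only.

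Of 14 regulators of respiratory genes tested, which include genes that act on mitochondrial DNA, 4 were higher, 4 lower and 6 not called. Among the factors of the motifs searched, NRF1 (-0.43) and ESRRA of the ERR family (-0.67) were lower and YY1 (0.33) was higher. GABPA was not called (-0.00), but was called higher with equal library totals (0.24) and lower after the GC correction (-0.19). TFAM, which packages and transcribes mitochondrial DNA, rose from 22.6 ± 1.75 to 56.5 ± 1.38 CPM (log2 fold change 1.29 ± 0.0635, adjusted p = 5.52e-11). POLRMT, the mitochondrial RNA polymerase, fell from 69.8 ± 9.45 to 20.4 ± 3.35 CPM (-1.73 ± 0.106, adjusted p = 7.10e-10). GABPB1, the partner of GABPA, fell (-0.71) and TFB2M, a mitochondrial transcription factor, rose (0.80). TFAM, POLRMT, GABPB1 and TFB2M did not change sign under another scaling.

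Of 13 genes of iron-sulfur cluster assembly, which supplies the clusters of the core, 9 were lower and 2 higher (median -0.63), and none of the 9 changed sign under another scaling. NFU1, a late carrier of clusters, fell from 42.5 ± 2.99 to 22.6 ± 2.11 CPM (log2 fold change -0.89). FDX2, LYRM4 and ISCU, of the early machinery, fell with -0.89, -0.73 and -0.54. Complex II, the other dehydrogenase of the chain, was listed with its assembly factors SDHAF1 to SDHAF4, and 3 of 8 genes were higher and 3 lower (median 0.04). Of these factors SDHAF1 (0.40) and SDHAF3 (0.47) rose, and SDHAF4 (-0.73, from 2.37 to 1.04 CPM) fell. SDHB, the iron-sulfur subunit of complex II, fell (-0.58) and SDHC, a membrane anchor, rose (0.32). SDHD was lower (-0.16) and SDHA was not called (0.02), with 0.08 and 0.27 at equal library totals. SDHD, SDHA and SDHAF1 were named after their values were seen. Of 8 other entries of electrons to ubiquinone 4 were lower and 1 higher, with AIFM2, which reduces ubiquinone at the plasma membrane, at -1.06 and GPD2, the glycerol phosphate dehydrogenase, at 0.35. Of 8 genes tested for NADH shuttles and supply 5 were lower and 3 higher. GOT1, SLC25A11 and MDH2 of the malate-aspartate shuttle fell (-1.33, -1.48 and -0.91). SLC25A12 and SLC25A13, its aspartate carriers, rose (0.97 and 0.74). MDH1 (-0.15) and GOT2 (-0.22) had 0.09 and 0.02 with equal library totals. SLC25A13, MDH1 and GOT2 were named after their values were seen.

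The fold changes moved with the GC content of the transcripts, in the family as in all genes. Over all genes with a mean of at least 5 CPM the median log2 fold change went from 0.14 in the tenth with the lowest GC content to -0.62 in the tenth with the highest. Across the 45 members with a GC value, which share the 8 libraries and so are not independent, Pearson's r between GC content and log2 fold change was -0.339 (Spearman's rho -0.241), and across 10839 genes it was -0.284 (-0.294). Among 25 members with a GC content below 50%, 13 were lower and 6 higher, with a median of -0.28 against 0.07 for all such genes. Among 20 members at or above 50%, 14 were lower and 1 higher, with a median of -0.37 against -0.35 for all such genes. The GC-poor members that fell include NDUFB5 (39.8%), NDUFAF4 (36.5%), NDUFS4 (42.9%) and NDUFAF2 (43.8%).

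Libraries differed in the same feature within groups. In the tenth of genes with the highest GC content, the median deviation from the group mean was 0.125 in low glucose replicate 2. It was 0.139 in high glucose replicate 2 and -0.199 in high glucose replicate 4. Low glucose replicate 2 was the highest of its group in 18 of 46 members, and high glucose replicate 2 in 19. High glucose replicate 4 was the lowest of its group in 18. After the GC correction 29 of 45 members were lower and 7 higher, against 5768 and 5693 of 15374 genes. The GC-rich core subunits kept a smaller fall, -0.83 for NDUFS8, -0.66 for NDUFS7 and -0.50 for NDUFV1, and NDUFA11 and NDUFB7 had -0.49 and -0.30. NDUFAF3 had -1.37, and NDUFB5 had -1.06. NDUFA6, NDUFS5 and NDUFS1, not called before, were called lower at -0.17, -0.11 and -0.17. NDUFA13, a GC-rich subunit of the proximal arm that was not called before (-0.04), was called higher at 0.31.

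**Figure D4:**
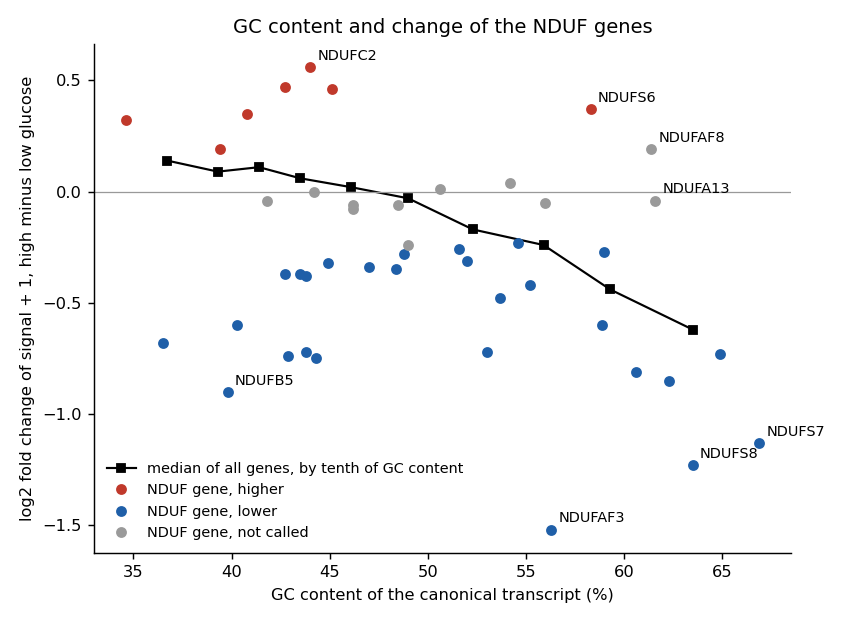
Log2 fold change of normalized signal + 1 (high minus low glucose, y axis) against the GC content of the canonical transcript (x axis, percent) for 45 NDUF genes, with the median of all genes in 10 bins of GC content as a black line. The line falls from 0.14 to -0.62, and NDUFB5, NDUFAF3, NDUFS7 and NDUFS8 lie well below it, while NDUFS6 at 58.3% GC lies above it.

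With low glucose replicate 2 and high glucose replicate 4 both left out, also chosen after seeing the data, 25 members were lower and 8 higher. Over all 15289 genes then tested 5562 were lower and 5281 higher. High glucose replicate 2 was kept in that fit. Of the 46 members 25 share exonic bases with another annotated gene on either strand, among them NDUFS7, NDUFS8, NDUFV1, NDUFAF3, NDUFAF7 and NDUFC2, and their values are uncertain to that extent.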

How the data were processed

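The authors deposited normalized signal for 21077 genes in 8 libraries. Builds and tools listed in the processing notes of the submitters are hg38 and edgeR. For RNA-Seq of other cultured lines the study's methods give CPM with TMM factors, and the signal was read in the same way. Aligner and counter: not given in the sources used here. Of the values below 50 estimated counts, 71.33% to 73.7% were whole within 0.005 count, so no count model was used, and the test named for normalized values replaced that for plain CPM. Groups came from the treatment labels. Depth was estimated from the commonest value above 0 in a column, taken as 1 count, and limits the low members (NDUFAF8, 29 to 69 counts), as far as counting error goes.

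A gene was kept if 2 or more libraries reached 0.5 CPM, and log2(CPM + 1) was fitted, high minus low glucose, without covariates and with a trended variance prior, in limma 3.58.1 under R 4.3.3, calling an adjusted p under 0.05. The fit was tested on simulated data. The members and lists were chosen with earlier results of these data known. Members given library by library were the 6 largest rises and the 6 largest falls, all NDUFAF genes, core subunits and NDUFA4, and the others are given by log2 fold change. Outside the members, the mitochondrial subunits, the assembly factors with other names and pseudogene rows were named, and of each other list at most 4 genes by smallest p. Exceptions, chosen after their values were seen, were SDHD, SDHA, SDHAF1, MDH1, GOT2, SLC25A13, NDUFA4L2, NRF1, ESRRA, YY1 and GABPA. 1 member counted in the totals is not reported here. Positions and promoters are from RefSeq (GRCh38.p14), with positions for 45 of 46 members. GC content, length and exon overlaps are from the canonical transcripts of GENCODE lifted to GRCh37. The alternatives were other pseudocounts, filters, variance priors and 3 other scalings, the replicate number as a block, leaving out libraries, a fold limit, the added pseudogene row, and GC and length corrections chosen after seeing the data.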

Additional observations from a re-analysis of the deposited data

Results flagged for a closer look

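Over 62 genes, 124 groups of 4 libraries were checked, and in 6 of them, all of members, 1 library stood apart from the other 3 by more than Dixon's test at the 95% level allows. Chance gives about 1 in 20 such groups, which is about as many. NDUFS8 had 75.6 CPM in low glucose replicate 2 against 54.8 to 57.8 CPM in the others, and NDUFC1 had 14.8 CPM in the same library against 11.6 to 11.7 CPM. NDUFB5 and NDUFS4 had 59.7 and 53 CPM in high glucose replicate 1 against 53.2 to 54.2 and 46.4 to 47 CPM. NDUFA6 had 55.8 CPM in high glucose replicate 4 against 65.3 to 66.8 CPM, and NDUFB1 had 18.7 CPM in high glucose replicate 3 against 19.9 to 20 CPM. The calls of NDUFS8, NDUFB5 and NDUFS4 held without each library in turn.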

How the results depend on the processing

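Of the 46 members 22 had the same call and direction in all 21 alternatives, 17 of them lower and 5 higher. Equal library totals gave 15 members higher and 17 lower and medians of -0.04 for subunits and -0.41 for assembly factors, and the median of all genes was then 0.20. The subunit median was -0.22 with quantile normalization, and that of the assembly factors -0.50 with a pseudocount of 5, -0.79 with the GC correction and -0.77 with the GC and length correction, and the cause was not tested. With at least a 1.5-fold change 0 members were higher and 14 lower, and such a limit can only reduce these counts. Leaving out 1 library gave 6 to 7 members higher and 26 to 29 lower, 5301 to 5388 genes higher and 5662 to 5711 lower over all genes, and medians of -0.31 to -0.27 for subunits and -0.69 to -0.59 for assembly factors. With the replicate number as a block 7 members were higher and 28 lower, with NDUFC1 added (adjusted p = 0.0437). Samples with the same number correlated at -0.00536, 0.295, 0.0463 and 0.211 in their deviations. Replicates 2 and 4 correlated best with their own number, and replicates 1 and 3 did not. Whether the numbers pair the samples cannot be told from these values, because the deviations of low glucose replicate 2 and high glucose replicates 2 and 4 also moved with GC content.

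Among members called lower, the sign changed for NDUFB8 with equal totals and for NDUFB10 with the GC and length correction, and the other sign changes of members and assembly factors were of genes not called. With equal totals NDUFB8, NDUFB6, NDUFA6, NDUFAF1, NDUFS5, NDUFA3, NDUFA13, NDUFS1 and NDUFB1 had 0.01, 0.05, 0.17, 0.17, 0.18, 0.18, 0.20, 0.21 and 0.23. With quantile normalization NDUFA6, NDUFS5, NDUFA3, NDUFA13, NDUFS1, NDUFB1 and TMEM186 had 0.01, 0.04, 0.02, 0.04, 0.05, 0.09 and -0.02. With median ratio scaling NDUFA13, NDUFS1 and NDUFB1 had 0.00, 0.00 and 0.04, and NDUFB1 had 0.00 with a pseudocount of 0.1. With the GC correction NDUFA3 and NDUFA13 had 0.08 and 0.31, and with the GC and length correction NDUFB10, NDUFA3 and NDUFA13 had 0.07, 0.20 and 0.37. Without low glucose replicate 2 and high glucose replicate 4 together NDUFA3, NDUFA13, NDUFA8 and TMEM186 had 0.03, 0.07, -0.04 and -0.03. Without 1 library the values ranged from -0.16 to 0.01 for NDUFA3, -0.09 to 0.02 for NDUFA13, -0.05 to 0.09 for NDUFB1, -0.06 to 0.05 for NDUFA8, -0.04 to 0.10 for NDUFB2 and -0.05 to 0.12 for TMEM186.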
